A study of Rattus norvegicus with 6 samples.

Results

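The enzymes followed here are 9 genes of the methionine cycle, of choline and betaine breakdown and of transsulfuration, chosen by name among the 25926 features of a liver RNA-seq table. The 9 are Mat1a, Gnmt, Ahcy, Bhmt, Chdh, Dmgdh, Sardh, Cbs and Cth. Each matched 1 row, and all 9 passed the filter of a mean of at least 1 FPKM (fragments mapped to a transcript, scaled for its length and for the depth of the library), which left 11362 features. The table compares 3 control livers, from rats given 0.9% saline, with 3 livers from rats given total parenteral nutrition (TPN, feeding by vein) for 7 days. The labels give Sprague-Dawley rats aged 4 weeks for all 6 samples but do not say that each sample is a separate animal, so a rat below stands for 1 numbered sample. The control rats carry the disease label normal, and the TPN rats the label PNALD, parenteral nutrition-associated liver disease. The saline arm does not separate the infused nutrients from the change in route of feeding, and the labels do not say how the controls were fed.

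The methionine cycle turns methionine into S-adenosylmethionine, the methyl donor of the cell, and returns it by way of S-adenosylhomocysteine and homocysteine. Homocysteine is either methylated back to methionine, with betaine or methyl-folate as the donor, or passed through transsulfuration to cysteine. Betaine is made from choline in mitochondria and, once it has given up a methyl group, is broken down through dimethylglycine and sarcosine to glycine. The liver carries most of this traffic, and its hepatocytes express all of these enzymes.

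In brief, betaine-homocysteine methyltransferase (Bhmt), glycine N-methyltransferase (Gnmt) and cystathionine gamma-lyase (Cth) were lower in every TPN liver than in every control liver. Mean FPKM was 4.26-fold, 2.43-fold and 3.07-fold lower. No member passed limma's test across all features at a Benjamini-Hochberg adjusted p under 0.05, where 0.246% of features passed (0.0264% higher and 0.22% lower). At an unadjusted p under 0.05, 4 of the 9 were lower (Bhmt, Cth, Gnmt and Dmgdh) and 0 higher, beside 7.01% of all features lower and 4.44% higher. The log2 fold change (TPN minus control, on log2(FPKM + 1)) was below 0 in 8 of 9 members, where 49.1% of all features were below 0, and its median was -0.57 (-0.80 to -0.35 with 1 rat left out) against 0.01 over all features. The 3 members without overlap between groups, all lower, stand beside 9.09% of all features lower without overlap, and 8.02% were higher without overlap. Among the 1089 features at least as abundant as the least abundant member (a mean of 50.1 FPKM), 57.3% were below 0 and the median was -0.06. Of those abundant features 12.6% were lower at an unadjusted p under 0.05 by limma, and 14.1% were lower without overlap. The members were chosen with earlier results of these data known, so these counts are a description.

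**Figure D1:**
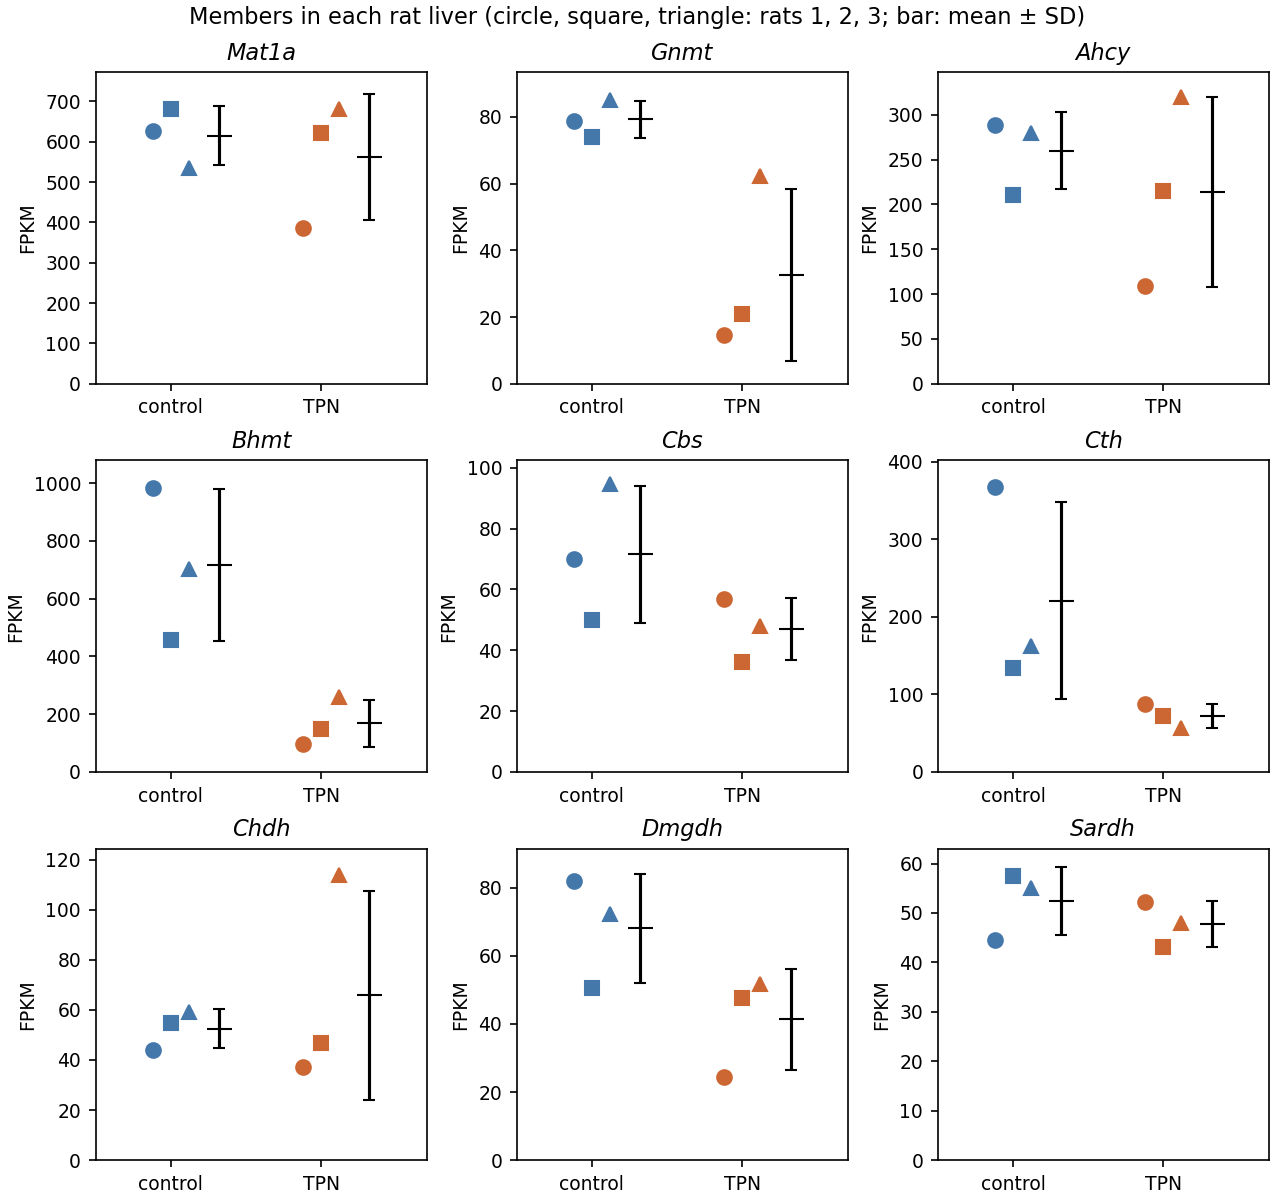
FPKM of the 9 members in each rat (linear axis from 0), with circles, squares and triangles for rats 1, 2 and 3 of a group and bars for the mean ± SD (n = 3). The groups are apart in Gnmt, Bhmt and Cth and overlap in the other 6 genes.

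Synthesis of S-adenosylmethionine in liver rests on Mat1a, the methionine adenosyltransferase of mature hepatocytes. Mat1a measured 627, 681 and 536 FPKM in control 1, 2 and 3 and 386, 622 and 680.4 FPKM in TPN 1, 2 and 3. TPN 1 lay under all other rats, while the other TPN rats lay within or close to the control range, so the groups overlapped. The means were 615 ± 73.3 and 563 ± 156 FPKM (SD, n = 3), with a log2 fold change of -0.16 (standard error 0.27, adjusted p = 0.877 by limma). Without TPN 1 it was 0.09.

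Gnmt uses S-adenosylmethionine to methylate glycine to sarcosine and so sets how much of the methyl donor is spent. It measured 78.9, 74 and 85 FPKM in control 1, 2 and 3 and 14.6, 20.9 and 62.4 FPKM in TPN 1, 2 and 3. The controls lay close together, TPN 1 and TPN 2 far below them, and TPN 3 only a little below. Variation among rats was 6.94% of the mean in control and 79.5% in TPN. The means were 79.3 ± 5.5 and 32.6 ± 25.9 FPKM, with a log2 fold change of -1.52 (standard error 0.48, 95% interval -2.66 to -0.38, adjusted p = 0.325 by limma). The log2 fold change was -2.12 without TPN 3 and -1.11 without TPN 1.

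Ahcy, the hydrolase that removes S-adenosylhomocysteine, measured 289, 211 and 279 FPKM in control 1, 2 and 3 and 109, 215 and 320.1 FPKM in TPN 1, 2 and 3. The TPN values ran from below to above all controls. The log2 difference for Ahcy was -0.39 (standard error 0.38, adjusted p = 0.752 by limma), and 0.03 without TPN 1. Within each rat the ratio of Ahcy to Gnmt was 3.67, 2.85 and 3.28 in control and 7.42, 10.3 and 5.13 in TPN, so that ratio did not overlap between groups. The ratio of Mat1a to Gnmt was 7.95, 9.2 and 6.31 in control and 26.4, 29.7 and 10.9 in TPN. In every TPN liver Gnmt thus stood lower relative to Mat1a and to Ahcy than in any control. Both ratios were formed on Gnmt, whose groups were already apart, so they describe its values again and add no separate evidence.

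Bhmt moves a methyl group from betaine to homocysteine and had the highest mean of the members in control liver, although Mat1a was above it in control 2 and the ranges of the 2 overlapped. It measured 982, 457 and 704 FPKM in control 1, 2 and 3 and 97.2, 148 and 258 FPKM in TPN 1, 2 and 3. The highest TPN rat lay below the lowest control, control 2. The means were 715 ± 263 and 168 ± 82.5 FPKM, and the log2 difference by limma was -2.13 (standard error 0.41, 95% interval -3.09 to -1.17, adjusted p = 0.124 by limma, unadjusted p = 0.000955). Of the 11362 features, 0.378% had a log2 fold change as low or lower. By mean level Bhmt ranked 83 of all features in control and 328 in TPN, while Mat1a ranked 97 and 92.

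The methyl-folate route to methionine is run by Mtr, the cobalamin-dependent methionine synthase. Mtr stood at 4.23 ± 0.696 FPKM in control liver and 5.12 ± 0.944 in TPN liver (adjusted p = 0.686 by limma). The Bhmt to Mtr ratio of FPKM in each rat was 272, 112 and 141 in control and 24.1, 26.3 and 45.2 in TPN. Bhmt remained the more abundant transcript in every rat, by a smaller margin in every TPN rat. On the log2(FPKM + 1) scale the difference Bhmt minus Mtr was 7.04 ± 0.64 in control and 4.68 ± 0.52 in TPN, a shift of -2.35 (exact permutation test, 2-sided, p = 0.1, adjusted p = 0.15 over 6 such contrasts). With 3 rats against 3 the smallest p this test can give is 0.1, so none of the 6 contrasts could pass. The groups of Bhmt were already apart, so ratios and contrasts formed on Bhmt are no evidence separate from its own difference.

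Choline dehydrogenase (Chdh) starts the oxidation of choline to betaine. It measured 43.8, 54.6 and 59.1 FPKM in control 1, 2 and 3 and 37.2, 46.7 and 114 FPKM in TPN 1, 2 and 3. Chdh was the one member with a higher mean in TPN (65.8 ± 41.7 against 52.5 ± 7.86 FPKM), and TPN 3 stood far above the other TPN rats. The log2 difference was 0.16 (standard error 0.40, adjusted p = 0.924 by limma) and -0.31 without TPN 3.

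Dmgdh and Sardh are mitochondrial flavoproteins that take the methyl groups off dimethylglycine and sarcosine in turn. Dmgdh measured 81.8, 50.5 and 72.1 FPKM in control 1, 2 and 3 and 24.4, 47.7 and 51.7 FPKM in TPN 1, 2 and 3. Only TPN 3 and control 2 crossed, and limma gave a log2 difference of -0.75 (standard error 0.32, 95% interval -1.49 to -0.01, adjusted p = 0.428 by limma). Sardh measured 44.6, 57.5 and 55.1 FPKM in control 1, 2 and 3 and 52.3, 43.1 and 48 FPKM in TPN 1, 2 and 3. Sardh varied least of the 9 in TPN, by 9.58% of its mean, with a log2 difference of -0.13 (standard error 0.18, 95% interval -0.54 to 0.29, adjusted p = 0.846 by limma). The within-rat log2 difference Dmgdh minus Sardh was 0.35 ± 0.52 in control and -0.27 ± 0.69 in TPN, with overlapping groups (exact permutation p = 0.4, adjusted p = 0.4).

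Transsulfuration begins with Cbs, cystathionine beta-synthase, which joins homocysteine to serine. Cbs measured 69.9, 49.9 and 94.6 FPKM in control 1, 2 and 3 and 56.8, 36.3 and 47.9 FPKM in TPN 1, 2 and 3. TPN 1 lay above control 2, and limma gave a log2 difference of -0.57 (standard error 0.27, 95% interval -1.21 to 0.06, adjusted p = 0.481 by limma). Cth splits cystathionine to release cysteine. It measured 367, 134 and 163 FPKM in control 1, 2 and 3 and 87.6, 72.2 and 56.4 FPKM in TPN 1, 2 and 3. Control 1 stood far above the other controls, yet every TPN rat lay below the lowest control. The means were 221 ± 127 and 72.1 ± 15.6 FPKM, with a log2 fold change of -1.48 (standard error 0.38, 95% interval -2.37 to -0.60, adjusted p = 0.214 by limma), and -1.05 without control 1. Between the 2 steps, the log2 difference Cth minus Cbs was 1.52 ± 0.80 in control and 0.61 ± 0.37 in TPN, with overlapping groups (exact permutation p = 0.2, adjusted p = 0.24).

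**Figure D2:**
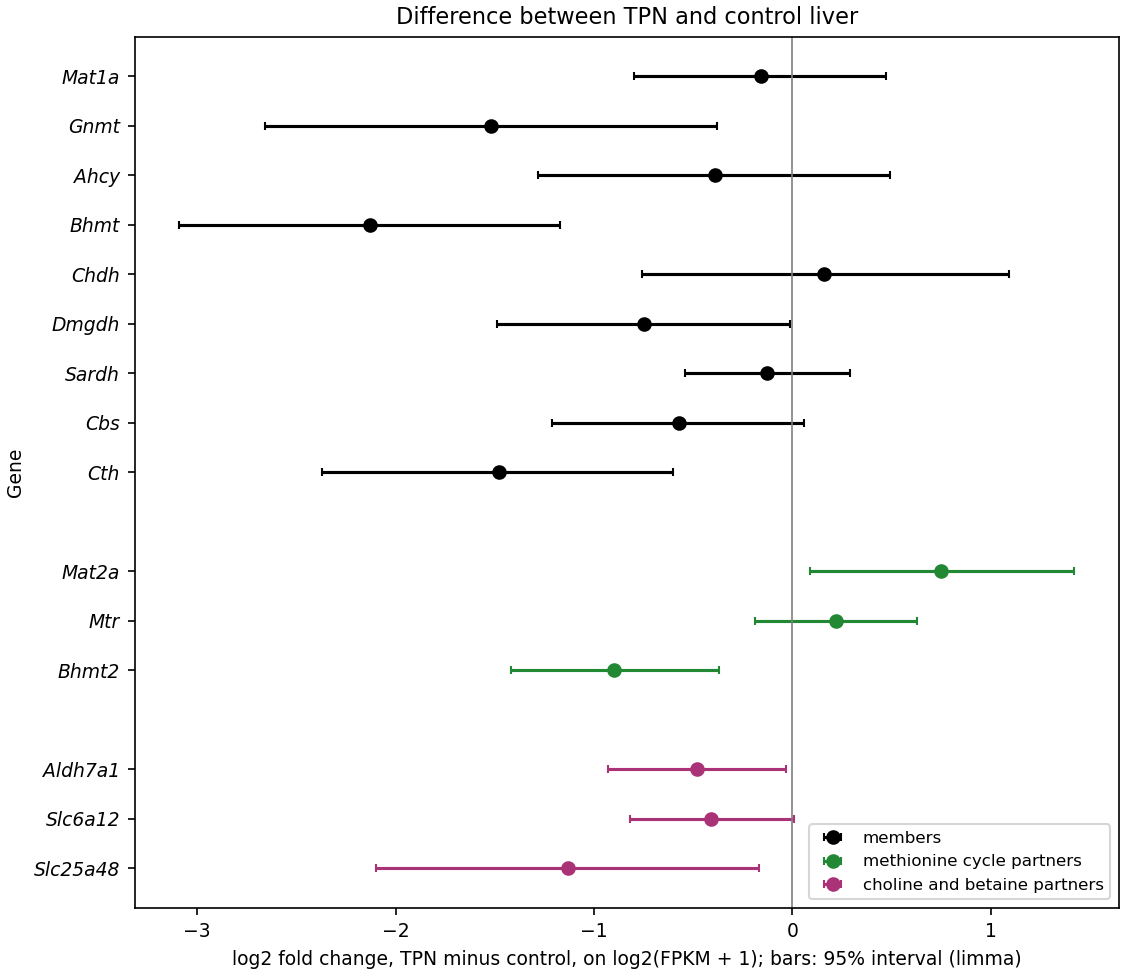
Log2 fold change (TPN minus control, on log2(FPKM + 1)) with limma's 95% interval for the 9 members and for the partner genes that the text names from the methionine cycle and from choline and betaine use. The intervals of Bhmt, Gnmt, Cth and Dmgdh lie below 0 among the members. Among the partners those of Bhmt2, Aldh7a1 and Slc25a48 lie below 0, that of Mat2a above 0, and those of Mtr and Slc6a12 span 0. No gene plotted passed after adjustment.

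The promoters of the 3 genes whose groups did not overlap are shown with that of Mat1a, whose groups did, to set the promoters of members whose groups were apart beside one whose groups were not. Sequences are RefSeq promoter windows of build GRCr8, 250 bases before to 50 after the gene start, read 5′ to 3′ on the gene's strand; 8 of the 9 members matched, and Dmgdh did not. Bhmt lies at chr2:26614380-26614679 (minus strand), Gnmt at chr9:21752032-21752331 (plus strand), Cth at chr2:249661017-249661316 (minus strand) and Mat1a at chr16:17016918-17017217 (plus strand). Capitals mark matches on either strand to 7 short motifs. The TATA box was searched as TATAAA, the CCAAT box as CCAAT and the GC box as GGGCGG. The E-box was searched as CACGTG and the C/EBP-ATF element as TGATGNAA. The forkhead site was searched as TGTTTAC and the glucocorticoid receptor half-site as TGTTCT. No match overlapped another in these 4 sequences.
Bhmt: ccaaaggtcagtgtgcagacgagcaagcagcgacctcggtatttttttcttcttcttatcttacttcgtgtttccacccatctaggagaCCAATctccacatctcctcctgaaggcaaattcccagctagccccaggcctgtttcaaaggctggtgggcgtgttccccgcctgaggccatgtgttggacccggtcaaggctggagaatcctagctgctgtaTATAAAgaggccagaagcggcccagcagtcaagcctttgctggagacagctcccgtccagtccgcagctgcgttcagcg
Gnmt: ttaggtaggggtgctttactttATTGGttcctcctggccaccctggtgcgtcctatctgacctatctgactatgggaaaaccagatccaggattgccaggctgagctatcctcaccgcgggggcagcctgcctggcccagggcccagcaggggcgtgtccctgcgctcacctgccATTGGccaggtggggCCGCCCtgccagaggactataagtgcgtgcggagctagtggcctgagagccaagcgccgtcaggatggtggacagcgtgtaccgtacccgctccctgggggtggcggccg
Cth: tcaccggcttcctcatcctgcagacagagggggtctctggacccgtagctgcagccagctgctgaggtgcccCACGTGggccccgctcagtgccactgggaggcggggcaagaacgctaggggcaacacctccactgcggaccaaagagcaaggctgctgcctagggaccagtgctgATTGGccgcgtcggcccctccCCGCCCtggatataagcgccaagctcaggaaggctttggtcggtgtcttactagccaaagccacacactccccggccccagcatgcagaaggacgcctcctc
Mat1a: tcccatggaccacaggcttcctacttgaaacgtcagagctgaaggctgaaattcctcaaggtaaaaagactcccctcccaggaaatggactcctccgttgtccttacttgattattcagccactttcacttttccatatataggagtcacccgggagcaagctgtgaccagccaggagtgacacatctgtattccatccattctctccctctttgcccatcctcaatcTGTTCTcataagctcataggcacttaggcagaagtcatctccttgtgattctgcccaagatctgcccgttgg

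The Bhmt window holds TATAAA starting at position -29, counted from the gene start, and was the 1 member window with that motif, which 14.2% of 33469 promoter windows hold. CCAAT or its reverse complement was in the Bhmt, Gnmt and Cth windows and in 5 of the 8 members in all, against 37.5% of windows. The GC box was in 5 of 8 members, Gnmt and Cth among them, against 33.1%. The E-box was in Cth and Sardh, against 6.42%, and the Mat1a window held the glucocorticoid receptor half-site, against 20.7%. The C/EBP-ATF element and the forkhead site were in no window of the 8 members, against 3.98% and 3.78% of all windows. Sardh has more than 1 window and was counted as holding a motif if any of them did, while the percentages are per window. GC content was 55.3% in Bhmt, 64% in Gnmt, 65% in Cth and 48.7% in Mat1a, with a median of 51.7% over all windows. These are matches of letters only.

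Summed over the 9 genes, control 1, 2 and 3 held 2585, 1769 and 2047 FPKM, and TPN 1, 2 and 3 held 864.4, 1251 and 1639 FPKM. Every TPN rat lay below every control, a gap that rests on Bhmt. With the Bhmt values taken out of the sums, TPN 3 lay above control 2 and control 3, so the groups overlapped. In control liver Bhmt made up 38%, 25.8% and 34.4% of that sum and Mat1a 24.3%, 38.5% and 26.2%. In TPN liver Bhmt made up 11.2%, 11.8% and 15.8% and Mat1a 44.6%, 49.7% and 41.5%. By mean level the order in control was Bhmt, Mat1a, Ahcy, Cth, Gnmt, Cbs, Dmgdh, Chdh and Sardh, with ranges apart only between Mat1a and Ahcy and between Cth and Gnmt. In TPN the order was Mat1a, Ahcy, Bhmt, Cth, Chdh, Sardh, Cbs, Dmgdh and Gnmt, with ranges apart only between Mat1a and Ahcy and between Bhmt and Cth. Against the mean of the other 8 members, Bhmt differed by -1.52 between groups on the log2 scale without overlap (2.96, 2.16 and 2.53 above that mean in control, 0.70, 1.02 and 1.35 in TPN, exact permutation p = 0.1, adjusted p = 0.15). The Bhmt shares and this contrast rest on Bhmt values whose groups were already apart, so they add no separate evidence.

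**Figure D3:**
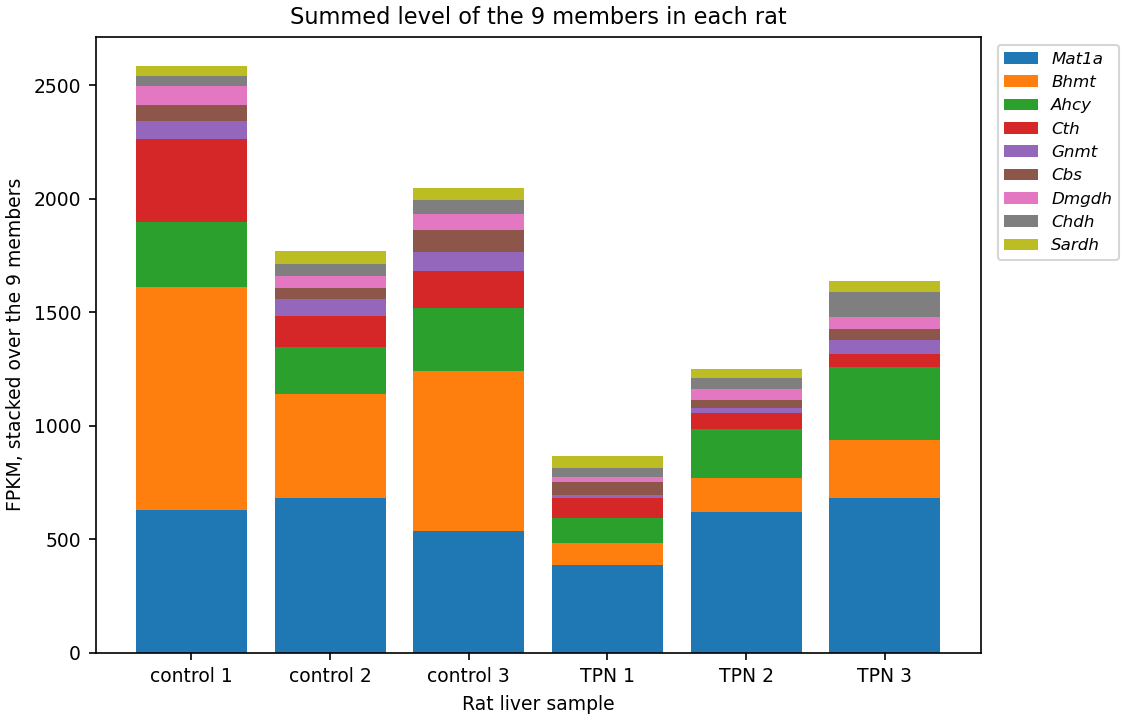
Stacked FPKM of the 9 members in each rat liver (linear axis from 0, 1 bar per rat). The Bhmt segment is smaller in each TPN bar than in any control bar, while the Mat1a segment is smallest in TPN 1 and larger in the other 5 rats.

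The members did not share 1 order across the rats of a group. Control 2 was the lowest control for 6 members (Cbs, Cth, Gnmt, Ahcy, Dmgdh and Bhmt), and TPN 1 the lowest TPN rat for 6 (Chdh, Mat1a, Gnmt, Ahcy, Dmgdh and Bhmt). TPN 3 was the highest TPN rat for those same 6 and the lowest for Cth. Cth thus ran the other way from Bhmt and Gnmt within the TPN group. Control 2 and TPN 1 were also the rats with the highest acute-phase level of their groups. The mean log2(FPKM + 1) of 14 acute-phase genes was 7.97, 10.15 and 8.30 in control 1, 2 and 3 and 11.57, 10.03 and 9.55 in TPN 1, 2 and 3, and 13 of the 14 had a log2 fold change above 0. None of the 14 passed limma's threshold, with 3 higher and 0 lower at an unadjusted p under 0.05, beside 4.44% and 7.01% of all features. Lbp, the lipopolysaccharide-binding protein, measured 28.2, 291 and 49 FPKM in control 1, 2 and 3 and 604, 312 and 320.3 FPKM in TPN 1, 2 and 3. Lbp was the 1 gene of the 14 whose groups did not overlap. The part of the acute-phase genes in the members' values was not tested. Leaving out both rats was added after seeing the data, and it removes the lowest control value of Bhmt. Without both rats, the log2 fold change was -2.08 for Bhmt (adjusted p = 0.0489 by limma, with 0.0171 to 0.426 over 18 alternatives), -1.15 for Gnmt, -1.92 for Cth, -0.95 for Cbs and 0.17 for Mat1a. In that fit 1.07% of all features passed, against 0.246% with all 6 rats, so the Bhmt value is a description.

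**Figure D4:**
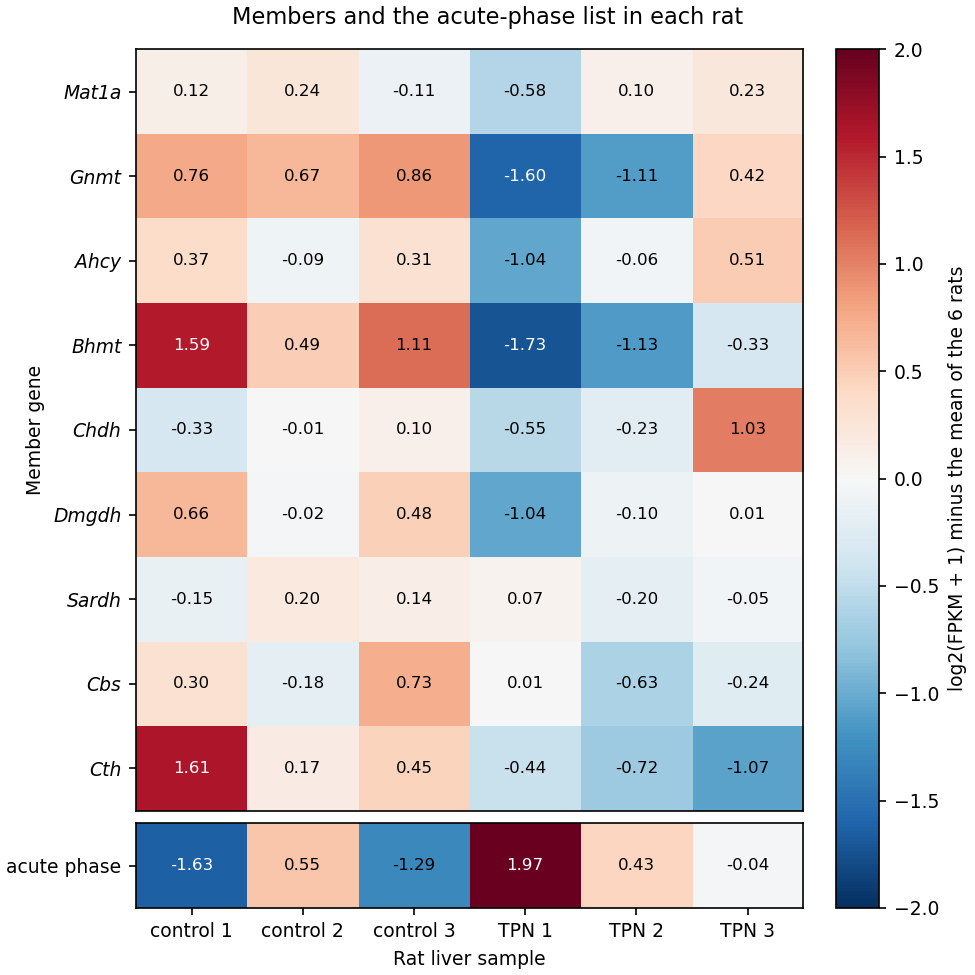
Log2(FPKM + 1) of each member minus its mean over the 6 rats (columns), with the mean of 14 acute-phase genes treated the same way below. Bhmt runs from 1.59 in control 1 to -1.73 in TPN 1, and Sardh stays between -0.20 and 0.20.

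Bhmt, its paralog Bhmt2 and Dmgdh are neighbours on chromosome 2 of the rat assembly GRCr8, in that order along the chromosome. Bhmt2, which uses S-methylmethionine as methyl donor, measured 206, 155 and 179 FPKM in control 1, 2 and 3 and 74.3, 102 and 115 FPKM in TPN 1, 2 and 3. Its groups did not overlap, with a log2 fold change of -0.90 (standard error 0.23, adjusted p = 0.206 by limma). The nearest protein-coding genes with a mean of at least 1 FPKM, taken after the values of the cluster were seen, were Tent2, Homer1 and Jmy on one side and Arsb, Lhfpl2 and Scamp1 on the other. Their log2 fold changes were -0.19, -0.03 and 0.00, and 0.12, 0.11 and -0.13, with overlapping groups in all 6 and adjusted p of 0.777 to 0.999 by limma. Their control means were only 15.7, 4.1 and 2.03, and 8.88, 1.36 and 10.5 FPKM. Those of Bhmt, Bhmt2 and Dmgdh were 715, 180.1 and 68.1 FPKM. On log2(FPKM + 1) the changes of the lowest genes are understated. The paralogs stood in another proportion in TPN, since the ratio of Bhmt to Bhmt2 was 4.78, 2.94 and 3.92 in control and 1.31, 1.45 and 2.25 in TPN, and the log2 difference Bhmt2 minus Bhmt was 1.23 higher in TPN without overlap (exact permutation p = 0.1, adjusted p = 0.15). This ratio too was formed on Bhmt, whose own groups were apart. The 2 paralogs are similar in sequence, and how reads shared by them were assigned is not described in the labels, so the split between them is uncertain.

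**Figure D5:**
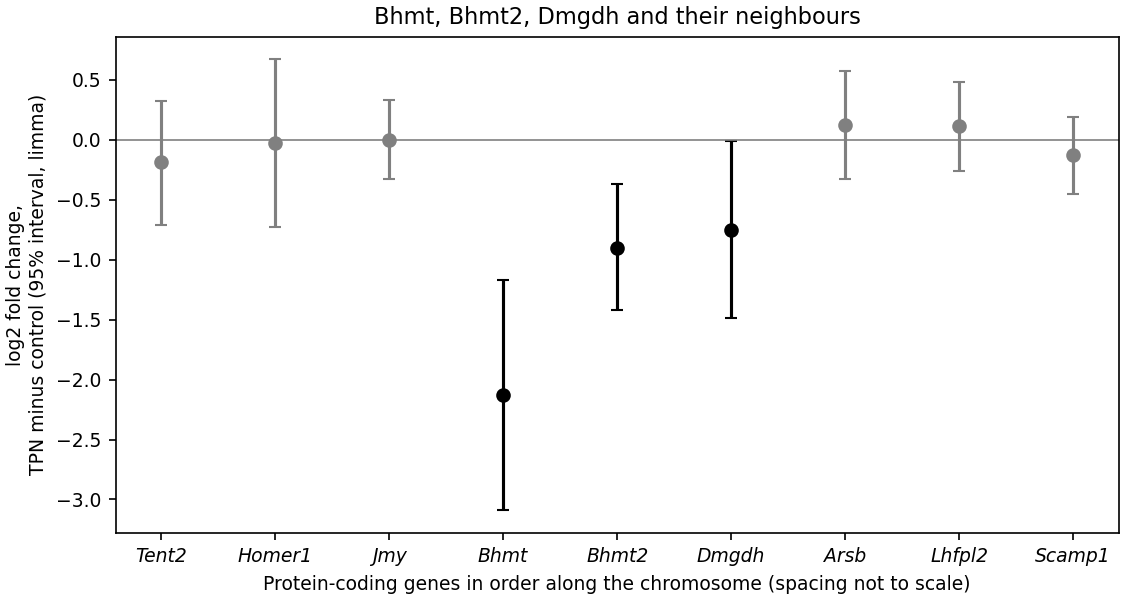
Log2 fold change (TPN minus control) with limma's 95% interval for Bhmt, Bhmt2 and Dmgdh (black) and for 3 measured protein-coding genes on either side (grey), in chromosomal order and not to scale. The intervals of the 3 black genes lie below 0, and those of the 6 grey genes span 0.

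Of 9 further genes of the methionine cycle, none passed (limma, with 1 higher and 1 lower at an unadjusted p under 0.05), 4 were above and 5 below 0, and the median log2 fold change was -0.07 (-0.24 without TPN 3 and 0.13 without TPN 1). Here and for the lists that follow, such values are the lowest and the highest as each of the 6 rats was left out in turn. Counts for these lists stand beside 7.01% of all features lower and 4.44% higher at an unadjusted p under 0.05. Without overlap, 9.09% of all features were lower and 8.02% higher. Mat2a, the adenosyltransferase of growing and non-hepatic cells, measured 7.66, 13.7 and 9.59 FPKM in control 1, 2 and 3 and 11.9, 19.1 and 23.7 FPKM in TPN 1, 2 and 3. The groups overlapped, with a log2 fold change of 0.75 (standard error 0.29, adjusted p = 0.383 by limma). Within each rat, however, the Mat1a to Mat2a ratio was 81.9, 49.7 and 55.9 in control and 32.4, 32.5 and 28.7 in TPN, without overlap. The log2 difference Mat2a minus Mat1a was 0.91 higher in TPN (exact permutation p = 0.1, adjusted p = 0.15).

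Among 11 genes of choline and betaine handling, none passed (limma, 3 lower and 0 higher at an unadjusted p under 0.05), 10 were below 0, the median stood at -0.18 (from -0.37 without control 2 to -0.13 without TPN 1), and 4 were lower without overlap. Aldh7a1, which oxidises betaine aldehyde to betaine, measured 154 ± 22.7 and 109.7 ± 9.8 FPKM in control and TPN (a log2 difference of -0.48, adjusted p = 0.405 by limma). Slc6a12, a betaine transporter, measured 10.3 ± 1.72 and 7.52 ± 1.12 FPKM (a log2 difference of -0.41). Slc25a48, a mitochondrial carrier, measured 2.77, 0.877 and 5.34 FPKM in control 1, 2 and 3 and 0.457, 0.838 and 0.581 in TPN 1, 2 and 3 (a log2 difference of -1.13), with control 2 just above TPN 2.

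Other enzymes that spend S-adenosylmethionine gave 5 of 7 measured genes below 0 (median -0.56), with none past limma's threshold and 2 lower at an unadjusted p under 0.05. Pemt, which makes phosphatidylcholine by methylation, measured 196 ± 25.3 and 131 ± 25.4 FPKM in control and TPN, without overlap (a log2 difference of -0.59, adjusted p = 0.372 by limma). Nnmt, which methylates nicotinamide, measured 33.9 ± 17.5 and 46.4 ± 5.62 FPKM (a log2 difference of 0.54). Inmt measured at most 5.68 FPKM in any rat. The median of this list was -0.68 without TPN 2 and -0.16 without TPN 1.

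Below cysteine, 8 of 11 measured genes were below 0 (median -0.54, with -0.83 without TPN 3 and -0.18 without TPN 1), none passed limma's threshold and 1 was lower at an unadjusted p under 0.05. That gene was Suox, the mitochondrial sulfite oxidase, with 49.3, 32.7 and 45.8 FPKM in control 1, 2 and 3 and 20.9, 23 and 26.4 FPKM in TPN 1, 2 and 3. It did not overlap between groups, with a log2 fold change of -0.82 (standard error 0.20, adjusted p = 0.204 by limma). The thiosulfate sulfurtransferase Tst measured 237 ± 65.3 and 158 ± 61.8 FPKM, and the mercaptopyruvate sulfurtransferase Mpst 50.6 ± 8 and 39.2 ± 6.24 FPKM. Got1, a transaminase that also acts on cysteine sulfinate, measured 73.2 ± 7.4 and 106 ± 40.1 FPKM.

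The folate and glycine enzymes held the 1 gene of the pathway lists that passed, Mthfd2, a mitochondrial folate enzyme of growing cells. Mthfd2 measured 0.491, 0.985 and 0.483 FPKM in control 1, 2 and 3 and 8.7, 14 and 4.76 FPKM in TPN 1, 2 and 3. It rose by 2.53 on the log2 scale (standard error 0.33, adjusted p = 0.0422 by limma). The call was lost with any of the 6 rats left out (adjusted p = 0.0604 to 0.165) and held in 5 of 17 alternatives, with a log2 difference of 2.19 to 3.74. Of 11 measured genes 8 were below 0, with a median of -0.18 (-0.37 without TPN 3 and -0.07 without TPN 2). Aldh1l1, which oxidises formyl-folate in the hepatocyte cytosol, measured 83.6, 56.6 and 69.6 FPKM in control 1, 2 and 3 and 8.13, 24.9 and 36 FPKM in TPN 1, 2 and 3 (log2 difference -1.76, standard error 0.50, adjusted p = 0.27 by limma). Gldc, the decarboxylase of the glycine cleavage system, which breaks down the glycine that Sardh releases, measured 15.3 ± 3.02 and 26.1 ± 7.14 FPKM, higher in TPN without overlap (adjusted p = 0.325 by limma). Ftcd, a folate enzyme of histidine breakdown, measured 111 ± 12.7 and 75.7 ± 30.5 FPKM. In methionine salvage and polyamine synthesis 6 of 9 genes were below 0 (median -0.11, with -0.23 without control 2 and 0.06 without TPN 1) and none passed limma's threshold, with 1 higher at an unadjusted p under 0.05. That was Odc1, the ornithine decarboxylase, at 16.2 ± 2.92 and 28.2 ± 6.68 FPKM, without overlap between groups. Adi1 of methionine salvage measured 73.4 ± 10.4 and 51.9 ± 19.6 FPKM, Mri1 6.71 ± 1.09 and 6.17 ± 1.24 FPKM, and the spermine synthase Sms 1.73 ± 0.136 and 1.15 ± 0.678 FPKM.

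Many of these enzymes are unevenly spread along the liver lobule, so zone markers and liver transcription factors were read beside them. All 9 measured pericentral genes were below 0 (median -0.65, with -0.86 without control 2 and -0.45 without TPN 1), and none passed limma's threshold. At an unadjusted p under 0.05 by limma 5 were lower, beside 7.01% of all features. Without overlap 4 were lower, beside 9.09% of all features. The pericentral genes included Rgn (521 ± 103 and 263 ± 45.7 FPKM), Oat (138 ± 75.7 and 33.7 ± 13.4), Cyp1a2 (418 ± 68.5 and 189 ± 112) and Axin2 (3.02 ± 0.867 and 1.7 ± 0.177). Of 10 periportal genes 9 were below 0 (median -0.43, with -0.91 without TPN 3 and -0.12 without TPN 1, 2 lower and 1 higher at an unadjusted p under 0.05, none past limma's threshold). Cyp2f4 measured 17.8 ± 4.68 and 8.36 ± 2.42 FPKM, Hal 51.2 ± 11.7 and 23.8 ± 10.3, Ass1 703 ± 109 and 419.6 ± 271, and Pck1, the exception, 384 ± 180.2 and 672 ± 112. Of 12 measured transcription factors 7 were below and 5 above 0 (median -0.05, with -0.18 without control 2 and 0.15 without TPN 1), and none passed limma's threshold, with 1 higher at an unadjusted p under 0.05. Foxa3 measured 15.9 ± 3.58 and 28.1 ± 10.9 FPKM, Foxa1 9.11 ± 1.15 and 12.2 ± 1.72 and Foxa2 12 ± 6.51 and 6.25 ± 2.1. In bulk liver, fewer cells of a type and less RNA per cell cannot be told apart.

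Hepatocyte markers were abundant in every liver and summed to 68023 to 83024 FPKM in control and 54748 to 74761 FPKM in TPN, with overlapping ranges. Of 9 measured, 5 were above and 4 below 0 (median 0.12, with 0.26 without TPN 3 and -0.04 without TPN 1), and Ttr, a carrier protein, was lower without overlap (6789 ± 2267 and 2507 ± 842 FPKM). Erythroid markers were lower in all 6 measured genes, of which 4 passed limma's test, and summed to 2125 to 2420.1 FPKM in control and 230.5 to 578 in TPN. With 1 rat left out those 4 genes passed in 1 or 2 of 6 fits each. Kupffer cell markers were above 0 in 6 of 7 genes and summed to 295 to 438 and 393 to 629 FPKM, and Marco, a scavenger receptor, measured 67.9 ± 5.76 and 136 ± 37.2 FPKM. Stellate markers summed to 41.2 to 68.6 and 33 to 42 FPKM, cholangiocyte markers to 10.7 to 14 and 6.42 to 8.14 FPKM, and endothelial markers to 54.1 to 87.4 and 63 to 81.3 FPKM. Of the stellate genes past the filter 5 were below and 2 above 0, and of the endothelial genes 4 and 2. Only 2 of 6 cholangiocyte genes passed the filter, both below 0, and Epcam alone measured 8.22 ± 2.06 and 4.59 ± 0.653 FPKM. Neutrophil markers summed to 5.9 to 25.3 and 14.3 to 41.4 FPKM, with 2 of 6 genes past the filter, both above 0. Markers of T and NK cells summed to at most 4.24 FPKM and those of B cells to at most 2.14 FPKM in a rat, and 3 of 5 pancreas markers were listed at 0 in every rat. The part of these cell types in the member values was not tested.

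The genes whose pattern over the 6 rats lay nearest to the mean pattern of the 9 members, among 6362 candidates with a mean of at least 5 FPKM, were Tmlhe, Ldhd, Ghr, Fah and Nudt14. The root mean square difference of their centred log2(FPKM + 1) from that mean was 0.0524 to 0.0745. Tmlhe, which starts carnitine synthesis from trimethyllysine, measured 9.77, 6.82 and 8.58 FPKM in control 1, 2 and 3 and 3.41, 4.62 and 6.42 FPKM in TPN 1, 2 and 3. Ghr, the growth hormone receptor, measured 174 ± 19.8 and 109.8 ± 28.7 FPKM, and Fah, the last enzyme of tyrosine breakdown, 174 ± 28.6 and 110.2 ± 30.2 FPKM. Among the members that distance ran from 0.203 for Dmgdh to 0.727 for Bhmt. The 5 genes were picked as the nearest, so the 2 ranges are not compared.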

How the data were processed

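Liver RNA was sequenced from 3 control and 3 TPN rats, grouped by sample title. Per the labels' protocols, RNA was extracted with TRIzol and libraries followed Illumina's usual protocols. Bowtie 0.12.2, Cufflinks and the build Rnor_6.0 are named, per the submitters' processing notes, with no role. A single table of FPKM without read numbers was deposited by the authors. Ratios of values under 0.3 FPKM between rats fell into no common step (at most 0.853% in any log2 bin of 0.01), so whole reads were not recoverable, the depth is unknown, and no counting interval is given. FPKM summed to 509630.0 to 544670.0 per rat, and strand and shared reads are not described. The labels number the samples without saying that each is a separate animal, so p-values measure only the spread between these samples, which may be technical.

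The 11362 features whose mean reached 1 FPKM were tested as log2(FPKM + 1) with limma 3.58.1 (statmod 1.5.0, R 4.3.3; trend and robust moderation, group as the only term, 2-sided, Benjamini-Hochberg). A fold change on this scale understates that of low genes, and a stated fold is 1 group's mean FPKM over the other's. On simulated data for TPN against control with these 11362 features, the test recovered 31 of 100 genes changed by 1 and 93 of 100 changed by 2 (log2), and 4 of 128 calls were false. The simulated spread was drawn from limma's fitted prior, independently for each gene and sample, and only genes above a set mean level were changed. Differences shared by many genes of a rat were not simulated, so these rates need not hold for the real data.

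The members and the 11 pathway and 10 cell type lists were chosen with earlier results of these data known. Of 185 list entries, 177 matched by symbol, 1 by an older symbol from RefSeq (GRCr8) and 7 had no match. Named were the 9 members, per list the genes past the threshold and the 4 with the smallest unadjusted p (at most 2 for acute-phase and cell type lists), the genes of 6 within-rat contrasts, and the 5 nearest in pattern; some genes this rule named are not reported here. Alternatives covered pseudocounts, filters, scaling, moderation, sample weights, replicate block, summed rows and each rat left out. Leaving out control 2 and TPN 1 together was added after seeing the data. Figures used matplotlib 3.10.9.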

Additional observations from a re-analysis of the deposited data

How the results depend on the processing

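Across 18 alternatives, Gnmt, Bhmt, Cbs, Cth, Dmgdh and Sardh stayed below 0 in each, and Cbs, Cth, Dmgdh and Sardh stayed on the same side of the threshold as well. Bhmt ranged from -2.50 without TPN 3 to -1.80 without TPN 1, and passed with sample weights (-2.34, limma adjusted p = 0.0171, range 0.0171 to 0.426) and without control 2 and TPN 1 together (-2.08). Gnmt passed with sample weights (-1.78, limma adjusted p = 0.0326, range 0.0326 to 0.885), so 2 members passed there, where 2.63% of all features did, and 1 without those 2 rats, where 1.07% did, against 0.246% in the analysis as reported. Mat1a turned above 0 after quantile normalisation (0.07) and without the 2 rats (0.17), with -0.32 to 0.09 when 1 rat was left out. Ahcy ran from -0.75 to 0.03 and Chdh from -0.31 to 0.48 when 1 rat was left out, and Chdh was -0.04 with sample weights.

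The 28 features called became 18 and 5 with pseudocounts of 0.1 and 0.01 FPKM, 0 without a filter, 6 at a mean of 5 FPKM, 0 after median-ratio scaling and 0 after quantile normalisation, 8 without trend or robust moderation, 299 with sample weights and 121 without the 2 rats. The counts at an unadjusted p under 0.05 by limma were 1898 without a filter, 1578 after median-ratio scaling and 1591 after quantile normalisation. Leaving out 1 rat gave 0 to 46 features: leaving out control 1, 2 or 3 gave 3, 46 and 6, and leaving out TPN 1, 2 or 3 gave 26, 1 and 0, the last with 1393 below an unadjusted 0.05 by limma. With the replicate block the count was 58. The labels do not say whether the replicate numbers pair the rats. Same-numbered deviations correlated at -0.214, -0.143 and 0.321, and not every rat correlated best with its own number. With 3 rats in a group these correlations cannot settle whether the rats were paired. No member passed with the block.

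List medians that moved by more than the spread between rats were erythroid (-2.51 at a pseudocount of 0.01, -2.55 at a mean of 5 FPKM, -2.47 to -1.78 with 1 rat left out), pericentral (-0.98 at a mean of 5 FPKM), stellate (-0.80 at a mean of 5 FPKM, -0.51 to -0.13 with 1 rat left out) and hepatocyte (-0.11 after quantile normalisation, 0.06 with sample weights, -0.07 without the 2 rats, -0.04 to 0.26 with 1 rat left out). The other methyltransferases (-0.16 without TPN 1) and the folate and glycine genes (-0.37 without TPN 3) also moved by more than that spread. With 1 rat left out, these ran from -0.68 to -0.16 and from -0.37 to -0.07. The 6 within-rat contrasts kept their direction under 9 alternatives each. The filter at a mean of 5 FPKM left the log2 fold change of each gene as it was and dropped low genes from the lists, so those medians cover fewer genes. The cause of the other shifts was not tested. Depth is unknown, so no limit from counting can be given.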
